A study of Mus musculus with 6 samples.

Results

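Il6ra, Il6st, Lifr, Osmr, Il11ra1, Ifngr1, Ifngr2, Ifnar1, Ifnar2 and Il10rb encode chains of the cell-surface receptors for the interleukin-6 (IL-6) family, the interferons and the IL-10 family. Open chromatin at these 10 genes was examined in mouse kidney by ATAC-seq (assay for transposase-accessible chromatin with sequencing), in which the Tn5 transposase cuts accessible DNA and the cut sites are read. The genes were taken from the GENCODE M39 annotation, which holds 21757 protein-coding genes on the standard chromosomes. For each gene, every distinct interval of the deposited peak list was taken that overlapped the stretch from 3 kb upstream of the gene start to the gene end. This gave 172 of 279569 intervals (0.0615%), of which 1 lies at both Ifnar2 and Il10rb.

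IL-6 family cytokines share the signalling chain gp130, which is encoded by Il6st. Il6ra and Il11ra1 encode chains that bind IL-6 and IL-11 and present them to gp130, whereas Lifr and Osmr encode chains that pair with gp130 and signal themselves. Ifngr1 and Ifngr2 encode the chains of the interferon-γ receptor, Ifnar1 and Ifnar2 those of the type I interferon receptor, and Il10rb a chain shared by the receptors for IL-10, IL-22 and the type III interferons. These receptors carry Janus kinases, which phosphorylate STAT transcription factors. STAT dimers bind GAS elements (written here as TTCNNNGAA, N for any base) and interferon-activated complexes bind ISRE elements (GAAANNGAA). In the kidney this signalling is known for its activity in injured tubules and in immune responses.

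The series holds bulk ATAC-seq libraries of kidney nuclei, 3 labelled WT and 3 labelled with a tubule-specific Acly knockout (Acly cKO), all with the treatment label Control. Per the study's methods, Acly cKO mice carry Acly fl/fl and Ksp-Cre, a Cre under the Cdh16 promoter active broadly in the tubule epithelium, and the controls are littermates with Acly fl/fl and no Cre. The labels give no strain or age for these mice. By the labels, WT came from batches 1 and 2 but Acly cKO from 4 and 5, so genotype and batch cannot be told apart. The deposited peak list is a single call, and its peak names mark it as made on pooled libraries. Which libraries entered the pool, and so the mix of genotypes behind a value, is not known, and the pool may hold further WT libraries of the study that are not analysed here. Therefore every value below describes the pool, no genotypes were compared, and no error between replicates exists. In a pool of nuclei, a site open in few cells and a site weakly open in many cannot be told apart.

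The fold enrichment of a summit (the highest point of an interval) is the linear ratio of the pileup of shifted and extended read ends to the background of the peak caller. The direction of that shift was not certain from the sources used here, so summit distances of few bp are approximate. All deposited values were whole multiples of 0.0655, with a largest distance of 0.00801 of a step from a whole number, so each value could be turned into a number of read ends and given an exact 95% Poisson interval. These counting intervals cover counting error only. Over the whole list, intervals had a median fold enrichment of 2.55 and a median width of 434 bp. Of all protein-coding genes, 75.8% had an interval at the start, and the median fold enrichment of these was 30.1. Among markers, the starts of 10 of 10 kidney tubule genes had an interval, with a median fold enrichment of 15.0, and 3 of the 10 lay above the coding median. A start interval was present for 5 of 7 immune cell genes (median 2.49, highest 27.6 at Csf1r) and 5 of 5 endothelial genes (median 4.12). For genes of other organs it was present for 3 of 7 (highest 3.40). No cell type was named from these lists.

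The DNA at the start site, the first base of the canonical transcript, is shown for 4 members that stand for the range of levels and of sequence types. Each run holds the 130 bases before the start and the 20 bases from it, 5′ to 3′ on the strand of the gene, read from GRCm39. Capitals mark the letters of searched motifs. Ifnar1 had the highest and Osmr the lowest level, Il6st encodes the shared chain and Ifngr2 held NF-kB letters (GGGANTTTC). The other capitals are GC boxes (GGGCGG, bound by SP and KLF factors), ETS letters (CCGGAA) and NF-Y letters (CCAAT), on either strand.
Ifnar1 start, chr16:91281812-91281961, plus strand: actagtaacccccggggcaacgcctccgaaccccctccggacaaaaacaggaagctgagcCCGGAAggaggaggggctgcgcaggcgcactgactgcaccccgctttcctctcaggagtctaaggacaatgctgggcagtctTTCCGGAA
Il6st start, chr13:112600474-112600623, plus strand: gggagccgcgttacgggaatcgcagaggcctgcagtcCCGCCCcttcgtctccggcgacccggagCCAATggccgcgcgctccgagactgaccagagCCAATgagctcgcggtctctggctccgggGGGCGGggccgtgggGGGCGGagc
Osmr start, chr15:6904431-6904580, minus strand: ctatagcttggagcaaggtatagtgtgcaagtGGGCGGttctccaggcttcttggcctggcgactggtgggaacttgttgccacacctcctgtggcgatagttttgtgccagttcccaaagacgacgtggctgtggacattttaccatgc
Ifngr2 start, chr16:91343776-91343925, plus strand: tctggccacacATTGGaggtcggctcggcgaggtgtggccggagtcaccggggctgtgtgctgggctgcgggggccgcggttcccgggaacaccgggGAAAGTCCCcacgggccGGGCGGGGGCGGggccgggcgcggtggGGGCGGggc

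Away from the starts, 4 stretches of 150 bases around summits are shown because they lie under the strongest intervals inside the members' introns. The Ifngr1 run holds letters of GAS, C/EBP (TTGCNNAA) and NF-Y. The Lifr run in intron 1 at 8.3 kb holds an E-box (CACGTG), and the run at 17.2 kb holds GAS letters that overlap NF-Y letters. The Il10rb run holds letters of C/EBP and NF-Y.
Ifngr1 intron 2, chr10:19473888-19474037, plus strand: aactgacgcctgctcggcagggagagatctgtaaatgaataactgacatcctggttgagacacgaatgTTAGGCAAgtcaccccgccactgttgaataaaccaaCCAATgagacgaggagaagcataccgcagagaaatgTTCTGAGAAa
Lifr intron 1 at 8.3 kb, chr15:7167180-7167329, plus strand: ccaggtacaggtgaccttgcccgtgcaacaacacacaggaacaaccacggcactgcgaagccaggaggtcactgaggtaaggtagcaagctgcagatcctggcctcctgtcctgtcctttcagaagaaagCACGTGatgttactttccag
Lifr intron 1 at 17.2 kb, chr15:7176081-7176230, plus strand: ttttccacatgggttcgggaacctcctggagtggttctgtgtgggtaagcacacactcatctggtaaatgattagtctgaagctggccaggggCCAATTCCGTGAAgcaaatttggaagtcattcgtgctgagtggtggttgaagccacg
Il10rb intron 4, chr16:91215550-91215699, plus strand: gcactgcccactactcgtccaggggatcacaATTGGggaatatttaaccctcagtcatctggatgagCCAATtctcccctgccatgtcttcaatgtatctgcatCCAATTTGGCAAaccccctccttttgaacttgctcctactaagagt

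All 10 receptor genes had an interval within 1 kb of the canonical start, against 75.8% of protein-coding genes. At all 10 this interval was also the strongest of the gene. Its fold enrichment was 20 or more at 10 of 10 members, against 49.3% of protein-coding genes. That share counts genes without a start interval, and of the 16499 coding genes with one, 10727 reached 20. The limit of 20 also lies just under the lowest member, Osmr, whose counting interval (18.5 to 23.1) reaches below it. The levels ran from 20.7 at Osmr to 84.9 at Ifnar1, with a median of 37.9. Among coding genes with a start interval the median was 30.1 and the middle 50% lay between 12.4 and 48.3. Hence 7 of the 10 members lay above the median of coding genes and 4 (Ifnar1, Ifngr1, Il6st and Il11ra1) above the upper quartile, as the plot of start levels shows. At 8 of the 10 members the ratio of observed to expected CpG around the start was 0.6 or more. Coding genes with such starts and a start interval had a median of 38.8, near the 37.9 of the members. The start intervals of the members had a median width of 4346 bp, against 2955 bp for coding genes. The summit lay within 200 bp of the start at 7 of 10 members (64.6% of coding genes) and within 400 bp at 9 of 10 (77.2%).

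**Figure D1:**
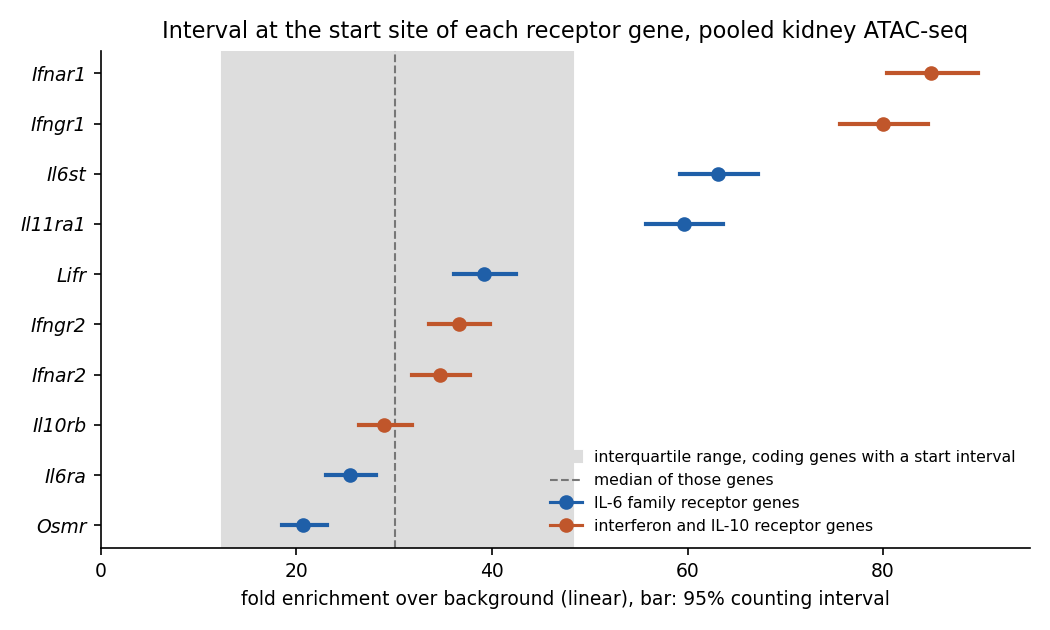
Fold enrichment (linear axis) of the interval at the start of each receptor gene, with bars for the 95% counting interval; blue marks the IL-6 family and orange the interferon and IL-10 receptor genes. Ifnar1, Ifngr1, Il6st and Il11ra1 lie to the right of the grey band, which spans the middle 50% of coding genes from 12.4 to 48.3 around the dashed median of 30.1.

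In order, the start levels were Ifnar1 (84.9), Ifngr1 (80.0), Il6st (63.1), Il11ra1 (59.6), Lifr (39.2), Ifngr2 (36.6), Ifnar2 (34.7), Il10rb (29.0), Il6ra (25.5) and Osmr (20.7). Between neighbours in this order, the counting intervals were apart only between Ifngr1 and Il6st and between Il11ra1 and Lifr. Each of the other 7 neighbouring pairs had overlapping counting intervals. Within each interferon receptor, the chains named 1 had the higher levels. The level at Ifngr1 was 2.19 times that at Ifngr2, and the level at Ifnar1 was 2.45 times that at Ifnar2. Among the IL-6 family genes, the shared chain Il6st exceeded Il6ra by 2.48 times, Osmr by 3.05 times and Lifr by 1.61 times, whereas it was 1.06 times the level of Il11ra1. These ratios compare single pooled values, and no replicate spread stands behind them.

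Il6st, the gp130 gene (chr13:112600604-112646620, plus strand), held 14 intervals over 49.0 kb. The start interval was 4167 bp wide with 9 summits, and the highest lay 18 bp upstream of the start with a fold enrichment of 63.1 (counting interval 59.2 to 67.2). The 150 bases shown above hold 3 GC boxes and 2 NF-Y boxes. The next levels were 10.6 at 2.7 kb upstream and 7.86 in exon 17, at the far end of the gene. A group of 3 coding transcripts starts 2.8 kb inside the gene, and the interval over that start reached 5.17. The coding transcripts that start 8.5 and 10.9 kb inside had no interval over their starts, and the highest levels within 1 kb of them were 2.36 and 1.70.

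Il6ra, the IL-6-binding chain (chr3:89771366-89820719, minus strand), held 17 intervals over 52.4 kb. The start interval of 2306 bp was narrower than those of most coding genes (35.6% of them were narrower) and reached 25.5 (23.0 to 28.1) at 23 bp upstream. An E-box lies near the summit. The other strong intervals were intronic or at the far end of the gene, with 9.49 in intron 1 at 16.4 kb, 7.01 in intron 9 at 40.8 kb and 6.35 in exon 10 at 44.7 kb. Thus 4 of 17 intervals at Il6ra reached a fold enrichment of 5, and 3 of them lay away from the start.

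Lifr, the receptor chain for leukaemia inhibitory factor (chr15:7120095-7226970, plus strand), held 45 intervals over 109.9 kb, more than any other member and more than 96.8% of coding genes. Per length it held 0.410 per kb, against a median of 0.186 per kb over coding genes. The level at the canonical start was 39.2 (36.1 to 42.5) at 169 bp upstream. The strongest intervals around it were 21.1 (18.8 to 23.5) in intron 1 at 8.3 kb, 15.6 (13.7 to 17.7) at 5.5 kb upstream and 13.7 (12.0 to 15.7) in intron 1 at 17.2 kb. In all, 10 of the 45 reached a fold enrichment of 5, and 8 of these lay more than 1 kb from every annotated start. The annotation also starts a coding transcript 38.9 kb upstream of the canonical start, where the highest level within 1 kb was 4.19, and 4 coding transcripts 11.0 kb downstream, where it was 2.68. A further coding transcript starts 24.9 kb downstream, with 6.35 within 1 kb and 4.58 over the start. The canonical start was thus the highest of the annotated starts of Lifr.

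Osmr, the oncostatin M receptor chain (chr15:6843053-6904450, minus strand), had the lowest start level of the 10 members, 20.7 (18.5 to 23.1). The summit lay 651 bp inside the gene, in exon 1, farther from its start than that of any other member. The interval of 4190 bp covers the start itself. No other interval at Osmr reached a fold enrichment of 5. The next levels were 4.84 in intron 7 at 34.6 kb and 4.52 in intron 3 at 24.9 kb, and the 12 intervals over 64.4 kb gave 0.186 per kb, at the median of coding genes. The base composition around the start was also the least GC-rich of the 10 (47.0% over 1000 bases, against a median of 55.1% for coding genes).

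Il11ra1, the IL-11-binding chain (chr4:41699989-41769485, plus strand), held 23 intervals, most of them outside its canonical transcript. A single coding transcript starts 60.2 kb upstream of the canonical start and stretches the gene across its neighbours, and no interval lay within 1 kb of that distant start. A group of 40 transcripts, the canonical one included, starts at the start interval. Within the stretched gene, 38.7 lay at the start of Dctn3, 18.3 at Rpp25l and 5.17 at Arid3c, and 9.69 lay at Cntfr, in the 3 kb upstream of it. The canonical transcript with its 3 kb upstream held 3 intervals. Its start interval is 9049 bp wide, wider than those of 93.4% of coding genes, holds 21 summits and also covers the start of Galt, an enzyme of galactose metabolism. The summit of 59.6 (55.8 to 63.6) lay 310 bp inside Il11ra1, in exon 1, and the next in the interval, 34.6, lay 341 bp inside Galt.

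Il11ra1 differs from the other members in its start sequence. The ratio of observed to expected CpG over the 1000 bases around the start was 0.269, under the limit of 0.6 that is often used for CpG islands. At 8 of 10 members the ratio was 0.6 or more (47.7% of coding genes), and Il10rb came close with 0.585. Coding genes under 0.6 that had a start interval reached a median fold enrichment of 12.6, and those at or above it 38.8. The 59.6 at Il11ra1 therefore lay far above the median of the CpG-poor starts. Of the 50-base words of its canonical transcript, 34.5% occur again in the genome, but 0% of those in the 1000 bases around the start.

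Ifngr1, the ligand-binding chain of the interferon-γ receptor (chr10:19467697-19485977, plus strand), held 10 intervals over 21.3 kb, and 2 of them stood far above the rest. The start interval of 6153 bp reached 80.0 (75.6 to 84.6) at 109 bp upstream. A further interval of 3995 bp in intron 2, 6.3 kb from the start, reached 23.9 (21.5 to 26.5), the highest level among the members' intervals more than 1 kb from every annotated start. Each of the other 8 intervals was at 2.49 or below. Together the intervals covered 62.7% of the region, against a median of 16.7% for coding genes.

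Ifngr2, the other chain of that receptor (chr16:91343906-91362512, plus strand), held the fewest intervals, 7 over 21.6 kb, but they covered 79.7% of the region. The start interval of 5624 bp with 16 summits reached 36.6 (33.6 to 39.8) at 29 bp inside exon 1. It is followed after a short gap by an interval of 7672 bp with 25 summits, whose highest lies in intron 2 at 10.8 kb with 13.4 (11.6 to 15.3). The start sequence shown above holds 3 GC boxes and the NF-kB letters, which 1.23% of coding promoters hold.

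Ifnar1 (chr16:91281942-91305789, plus strand) had the highest level of the 10, 84.9 (80.4 to 89.7) at 85 bp inside exon 1, above 97.4% of coding genes with a start interval. Its 15 intervals over 26.8 kb gave 0.559 per kb, the densest of the members. The next levels were 10.7 (9.16 to 12.5) in intron 2 at 6.6 kb and 8.64 in intron 6 at 13.2 kb, so that the start stood 7.91 times above the next interval, the widest such step among the 10. The other 12 intervals were at 2.49 or below. An Ifnar1 transcript not annotated as coding starts 7.6 kb inside the gene, within 1 kb of the interval in intron 2.

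Ifnar2 (chr16:91169618-91202723, plus strand), the chain that binds interferon with high affinity, reached 34.7 (31.8 to 37.8) at 270 bp inside exon 1. Its 18 intervals over 36.1 kb include the shared interval at the start of Il10rb (29.0), which begins in the last part of Ifnar2. The next of its own were 10.4 (8.86 to 12.2) in intron 3 at 13.0 kb, 8.58 in intron 7 at 25.4 kb and 6.61 in intron 1 at 6.4 kb. The annotation also starts a coding transcript and the coding gene Gm21970 near the interval in intron 3.

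Il10rb (chr16:91203012-91224600, plus strand) begins only just past the end of Ifnar2. Its start interval of 4906 bp reached 29.0 (26.4 to 31.8) at 138 bp inside exon 1. In intron 4, 12.6 kb from the start, an interval of 5038 bp with 17 summits reached 17.9 (15.9 to 20.2), and in intron 3 an interval of 3361 bp reached 8.58. The start exceeded the next interval by 1.62 times, the smallest step among members whose next interval is their own and not at another gene's start. The 12 intervals covered 74.1% of the region.

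**Figure D2:**
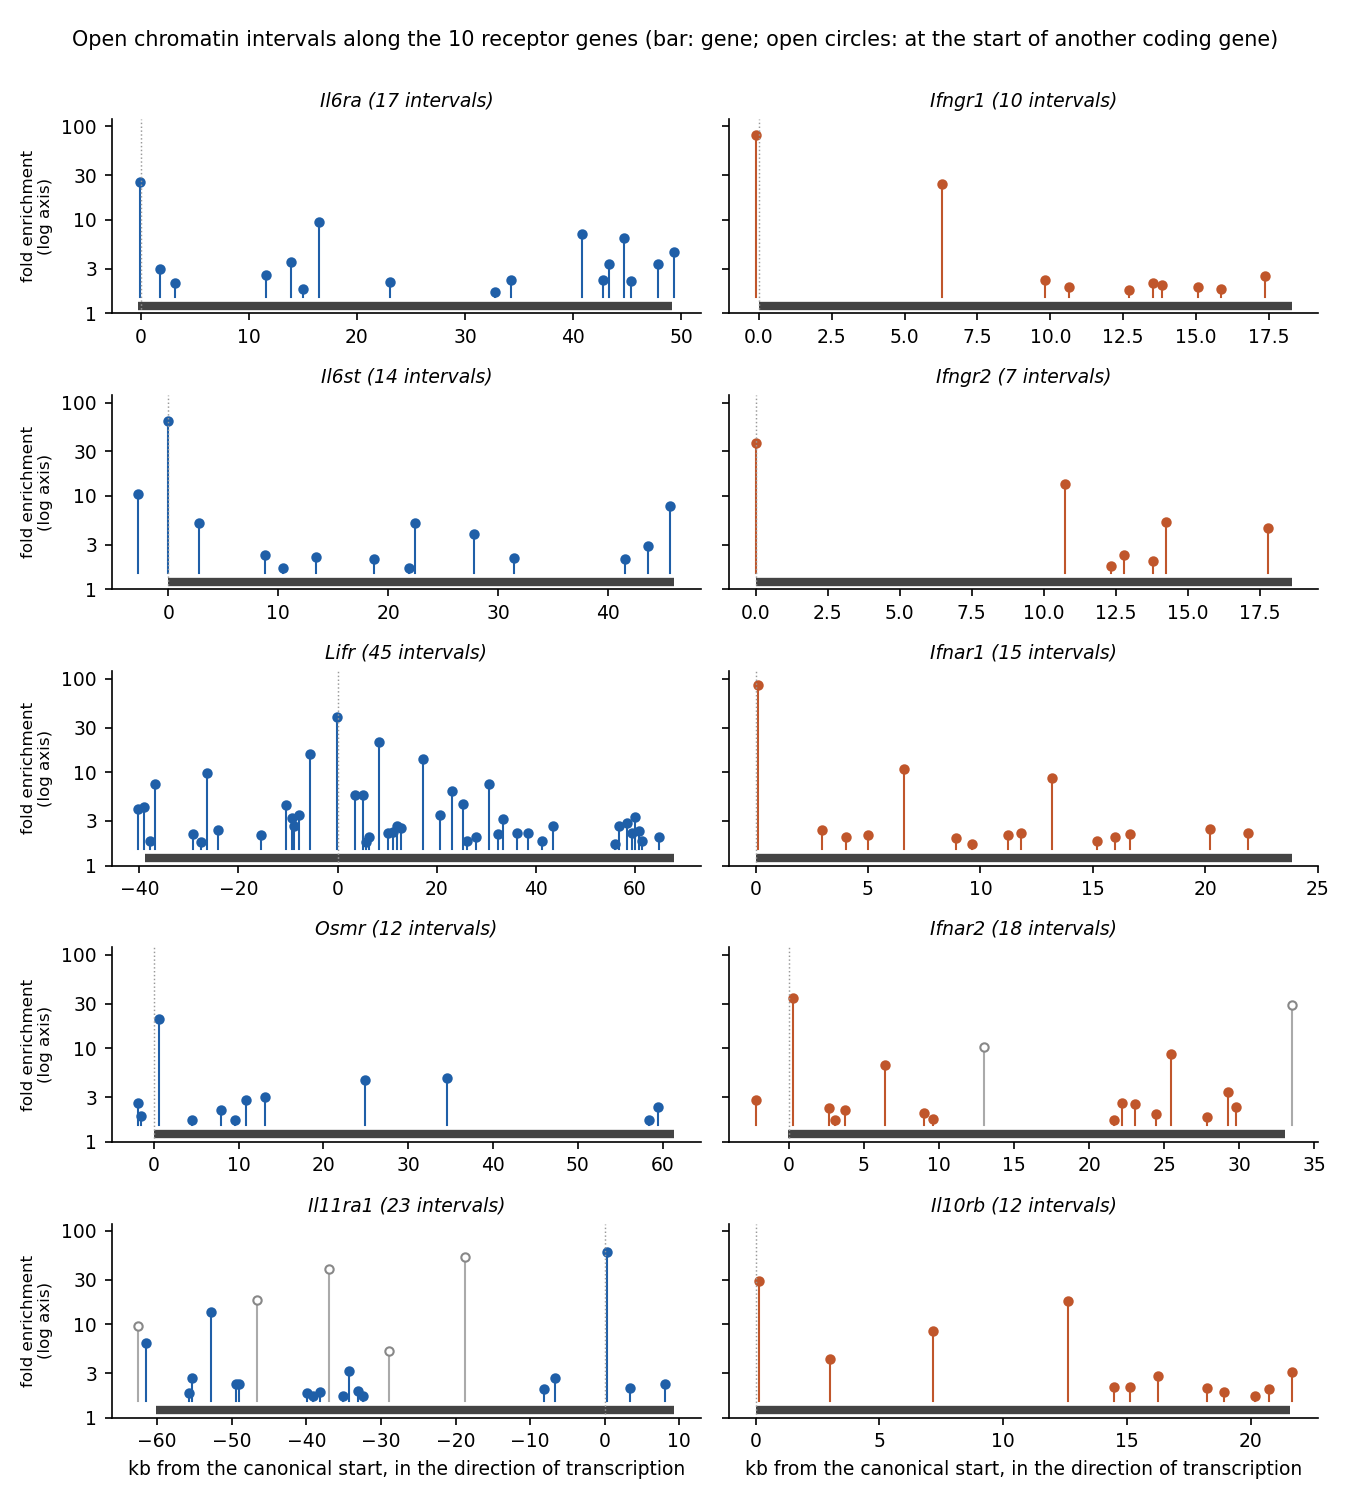
Each panel shows 1 receptor gene, with the distance of every summit from the canonical start in kb along the direction of transcription (horizontal) and its fold enrichment on a log axis (vertical); grey bars mark the gene, open circles intervals at the start of another coding gene. At every member the highest point lies within 1 kb of distance 0, and it lies farthest from it at Osmr (651 bp). Lifr shows the most intervals (45) and Ifngr1 a single strong interval (23.9) at 6.3 kb.

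On chromosome 16, Ifnar2, Il10rb, Ifnar1 and Ifngr2 lie side by side in this order, all on the plus strand. From the start of Ifnar2 to the end of Ifngr2, 192.9 kb held 88 intervals (0.456 per kb), of which 23 reached a fold enrichment of 5. The 54.3 kb between Il10rb and the upstream limit of the Ifnar1 region, 3 kb before the gene, held 25 of them. The strongest there, 32.5 at 17.1 kb before that limit, overlaps the noncoding genes A930006K02Rik, Gm49625 and Gm49626, and its level lay between those at the starts of Il10rb and Ifnar2. The 35.1 kb from the end of Ifnar1 to the upstream limit of the Ifngr2 region held 13 intervals with a highest level of 8.90. The map of the receptor group shows that Ifnar1 stood above its 3 neighbours, whose start levels lay between 29.0 and 36.6.

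**Figure D3:**
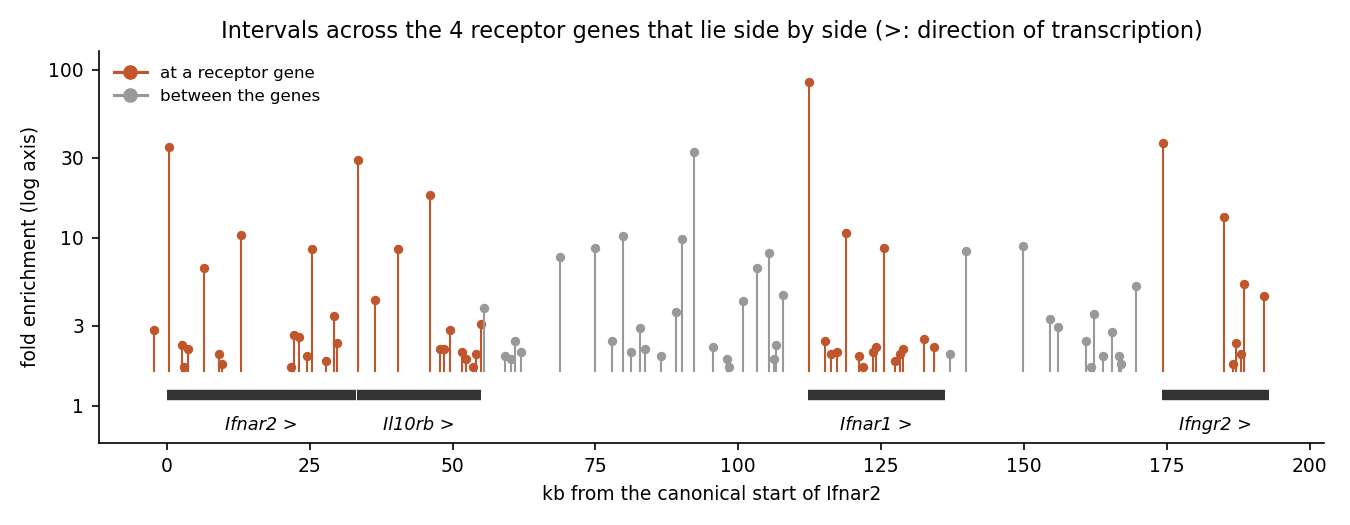
Summits across the chromosome 16 receptor genes, by distance in kb from the Ifnar2 start (horizontal) and fold enrichment on a log axis (vertical); orange marks intervals at a receptor gene, grey those between the genes, and bars the genes. The 4 gene starts reach 34.7, 29.0, 84.9 and 36.6, and the highest grey point is 32.5.

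Of all 172 intervals, 102 had their highest summit in an intron of the canonical transcript, 42 upstream of it, 25 in an exon and 3 downstream. The interval shared by Ifnar2 and Il10rb was counted once, as downstream of Ifnar2, although its summit lies in exon 1 of Il10rb. The median fold enrichment was 2.39, near the 2.55 of the whole list. A fold enrichment of 5 was reached by 43 of the 172, against 24.5% of all intervals, and a −log10 q of 5 by 86 of the 172, against 54.9%, both shares close to those of the whole list. Within 3 kb of any annotated start lay 87 (50.6%, against 38.4%). These shares are not like for like. Each member region holds a start by construction, and that of Il11ra1 also holds starts of other coding genes, whereas the whole list includes intervals between genes. Away from every start by more than 1 kb lay 129 intervals, of which 22 (17.1%) reached a fold enrichment of 5, against 19.3% of all such intervals. The share at the members was thus near that of the whole list. Per member, the number of such intervals at 5 or more was 8 at Lifr, 3 each at Il6ra and Il6st, 2 each at Ifnar2 and Il10rb, 1 each at Il11ra1, Ifngr1, Ifngr2 and Ifnar1, and 0 at Osmr.

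For 15 motifs, the letters were searched on both strands in the promoter (250 bases before to 50 after the start) and in 200 bases around the highest summit of each interval. A match is a run of letters and not a bound site. GC boxes stood in 7 of 10 receptor promoters (42.5% of coding promoters), NF-Y letters in 5 (39.9%) and ETS letters in 4 (16.9%), at Il6st, Lifr, Ifnar1 and Il10rb. GAS letters stood in 2 (8.82%), at Ifnar2 and Il11ra1, and ISRE letters in 1 (8.79%), at Il10rb. Among the 10, a TATA box (TATAAA) stood at Ifnar1 alone (13.2% of coding promoters) and an E-box at Il6ra alone (7.82%). NF-kB letters stood at Ifngr2 alone (1.23%) and C/EBP letters at Il11ra1 alone (10.7%). Letters of AP-1 (TGANTCA, 7.15%), HNF1 (GTTAATNAT, 0.809%), HNF4 (CAAAGTCCA, 0.451%), NRF1 (GCGCATGCG, 2.45%), YY1 (AAGATGGCG, 1.34%) and CRE (TGACGTCA, 2.44%) stood in 0 of 10. With 10 promoters, counts of 0 or 1 do not set the members apart from these shares.

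In the summit windows, GAS letters stood in 15 of 172 (8.72%, against 5.92% of all intervals), 4 each at Lifr and Ifnar1, 2 at Il6ra and 1 each at Osmr, Il11ra1, Ifngr1, Ifngr2 and Il10rb. Il6st and Ifnar2 had 0. Among intervals with a fold enrichment of 5 or more the count was 7 of 43 (16.3%, against 6.57%). A higher share in that set was not particular to GAS. E-boxes stood there in 14.0% (against 4.99%), ETS letters in 16.3% (against 7.34%) and C/EBP letters in 14.0% (against 8.59%). GC boxes, NF-Y, NF-kB, NRF1, YY1 and CRE letters also had higher shares there. The shares of ISRE, AP-1, TATA box, HNF1 and HNF4 letters were lower. ISRE letters stood in 6 of 172 (3.49%, against 4.77%) and E-boxes in 13 (7.56%, against 3.85%). GC boxes stood in 20 (11.6%, against 8.15%), ETS letters in 10 (5.81%, against 3.94%) and CRE letters in 4 (2.33%, against 0.405%). The shares of YY1 and NRF1 letters were also higher than in all intervals, and those of C/EBP, NF-kB, NF-Y and TATA box letters lower. AP-1 letters, bound by factors of the injury and stress response, stood in 16 (9.30%, against 12.4%). The letters of HNF1 and HNF4, regulators of proximal tubule genes, stood in 0 of 172, against 1.29% and 0.884% of all intervals. With shares this small, counts of 0 in 172 windows do not set the members apart. In windows of 400 bp, HNF1 letters stood in 1 of 172 (0.581%, against 1.85%) and HNF4 letters in 0 (against 1.18%). No test was made of any of these shares, and overlapping motifs were counted under each name.

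Further GAS and ISRE letters are given here with 10 bases on each side, on the strand of the gene, because they are the letters to which the factors downstream of these receptors can bind. The runs come from summit windows of intervals with a fold enrichment of 5 or more and from promoters. The ISRE letters of the Il10rb promoter, with their middle 2 bp from the start, are not printed. Capitals mark the 9 letters of the motif. The GAS and ISRE letters of Ifnar1 intron 2 overlap each other. They lie in an intron of the canonical transcript but in an exon of another Ifnar1 transcript.
Lifr upstream, GAS, chr15:7132718-7132746: attcctcagaTTCCATGAAtaagtgagag
Lifr intron 1 at 23.1 kb, GAS, chr15:7182092-7182120: accgaggacaTTCCAGGAAtacatttcca
Ifnar1 exon 1 interval, GAS, chr16:91282088-91282116: ggcgggggcgTTCACGGAAggggcggggc
Ifnar1 intron 2, GAS, chr16:91288482-91288510: ttatttctgtTTCCTTGAAgtattaatgt
Ifnar1 intron 2, ISRE, chr16:91288476-91288504: gatcatttatTTCTGTTTCcttgaagtat
Il10rb intron 3, GAS, chr16:91210188-91210216: ctacagccatTTCCTTGAActgaggggat
Ifnar2 promoter, GAS, chr16:91169447-91169475: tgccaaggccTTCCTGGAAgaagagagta
Il11ra1 promoter, GAS, chr4:41760149-41760177: caggggcaccTTCATCGAAtacagtcagc
Il6ra exon 10, ISRE, chr3:89775922-89775950: tgtcttgggaGAAAGGGAAccccggtgtg

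The start levels of the receptors were set beside those of the genes around them in the pathway, by role. Over all protein-coding genes, 75.8% had a start interval and 49.3% had one of 20 or more. All 4 Janus kinase genes had a start interval of 20 or more, from 23.8 at Jak3, the kinase of lymphoid cytokine receptors, to 64.6 at Tyk2, which serves the type I interferon receptor. The 9 transcription factor genes all had one, from 4.12 at Stat4 to 68.6 at Stat3, the main STAT of gp130, and 7 of 9 reached 20. Of the inhibitors, 9 of 9 had a start interval and 8 reached 20, from 5.11 at Ptpn6, a phosphatase of blood cells, to 49.6 at Socs3, which binds gp130. The receptor median of 37.9 lay among the medians of these roles (53.6, 33.2 and 42.1).

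The ligand genes lay lower in level, but not in the presence of an interval. A start interval was present at 11 of 15, near the 75.8% of all protein-coding genes. Where present, the median was 4.98, against 30.1 over coding genes, and 2 of 15 reached 20, against 49.3%. The highest was 34.4 at Clcf1 and the lowest 2.03 at Osm, the ligand of Osmr, while Ifng, Ifne, Il10 and Il22 had none at the start. Other receptor genes of these families had one at 9 of 12, also near that share, with a median of 10.5. The highest level, 33.5, was at F3, the tissue factor gene, and Il11ra2, Il31ra and Il22ra2 had none. Target genes had one at 11 of 12 with a median of 12.8, from 3.27 at Mx1 to 46.9 at Isg15, and Saa1 had none. The lowest of the 10 members, 20.7, lay above the median of each of these 3 roles, as the plot by role shows.

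**Figure D4:**
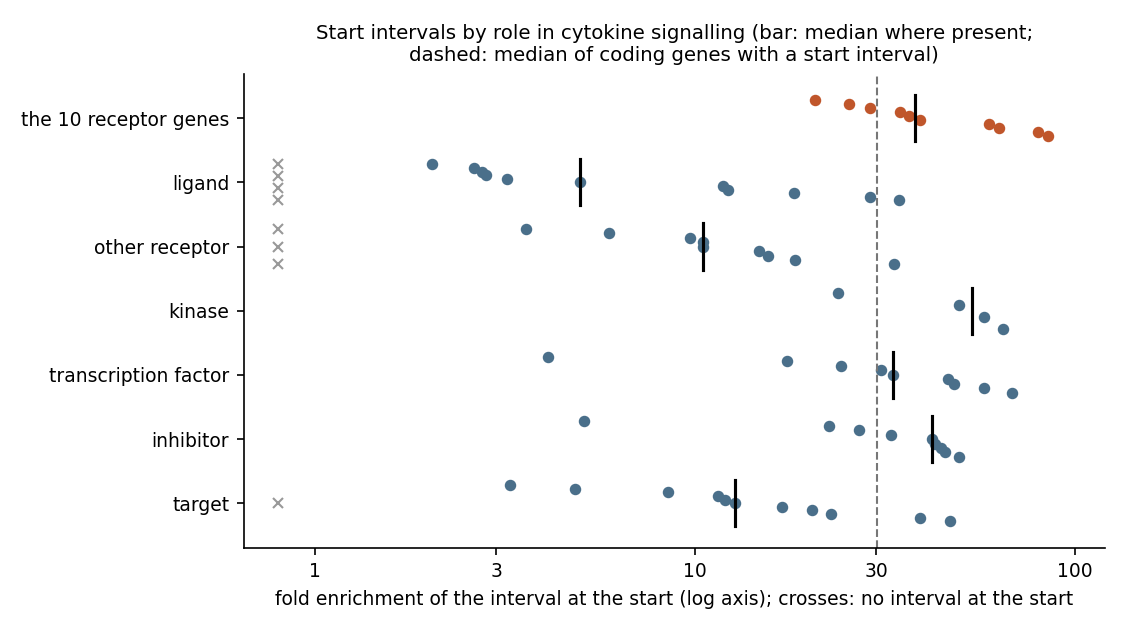
Fold enrichment of the start interval (log axis) for the 10 receptor genes in orange and for other pathway genes in blue, by role; black bars are medians where an interval was present, crosses genes without one, and the dashed line the coding median of 30.1. The receptor points span 20.7 to 84.9 with no cross. The ligand row has a median of 4.98 and holds 4 crosses among 15 genes, a share near that of all coding genes.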

How the data were processed

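Bulk ATAC-seq was measured in 3 WT and 3 Acly cKO kidney libraries, and the deposited peak list pools libraries without naming them. The study's methods count 5 WT libraries, 2 of them from an earlier deposit and not analysed here, so the makeup of the pool is unknown. Per the study's methods and the submitters' processing notes, the authors ran fastp for trimming and Bowtie2 2.3.4.3 for alignment to mm39, kept uniquely mapped reads without duplicates, ran MACS3 3.0.0 with sub-peak summits, and used BEDTools 2.29.1 to take out the blacklist and the non-standard chromosomes. The deposited values, as the authors' caller wrote them, are the fold enrichment of each summit over background (a linear ratio), its −log10 p and −log10 q, a whole-number score that follows the −log10 q, and the summit offset in bp. Library depths are unknown here, so precision is given only as 95% counting intervals, which assume a constant background and treat read ends as independent.

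From these, rows with the same chromosome, start and end were joined into 1 interval, which took the fold enrichment and −log10 q of its highest summit by −log10 q. Coordinates are GRCm39, counted from 1. Start sites are those of the Ensembl canonical transcripts of GENCODE M39. The scripts used Python 3.11.15, pandas 2.3.3 and pysam 0.24.0, and were tested on simulated data. The 10 members, the pathway and marker lists and the motifs were chosen with earlier results of these data known. All members are named, with the start interval and up to 3 further intervals of highest −log10 q or with a fold enrichment of 5 or more. Of the pathway roles, the highest, the lowest and the genes without a start interval are named, except where an item is not reported here. Csf1r was named after its value was seen. Alternatives covered limits on q and fold, overlap, upstream length, gene model, promoter definition and window size. No test was made.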

Additional observations from a re-analysis of the deposited data

How the results depend on the processing

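The count of 172 intervals at the 10 receptor genes fell to 86 with a −log10 q of at least 5 and to 43 with a fold enrichment of at least 5, and rose to 552 when summits were counted in place of intervals. It stayed between 138 and 201 with a −log10 q of at least 2, with no upstream sequence or 10 kb of it, with the summit or most of the interval inside the region, and with the canonical transcript in place of the gene, an alternative chosen after seeing the data. That last choice left Il11ra1 with 3 of 23 intervals and Lifr with 31 of 45. The share of receptor intervals at a promoter, 50.6%, was 33.1% when only protein-coding transcripts gave starts (17.2% of all intervals) and 25.0% within 1 kb of a start (21.3% of all intervals). Under each definition the member regions hold starts by construction, unlike the whole list. All 10 genes had a start interval under every alternative tried, and the median start level was 37.9 in each. Some of these alternatives could hardly move the median. Setting absent genes to the lowest value had none to act on. Summits also rank alike by fold enrichment and −log10 q if the background is constant. Of 80 counts for single genes under the alternatives, 22 moved by over 1.5 times, 20 of them under the 2 stricter limits. Of 45 motif shares, 19 left the 95% Wilson interval of the main share. GAS letters stood in 3.49% of windows of 100 bp (2.76% of all) and 12.8% of windows of 400 bp (12.1% of all), so that the gap to all intervals was smaller in both than in 200 bp.

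No paired analysis was possible because 1 pooled peak call has no columns for libraries. Leaving out a library was not run for the same reason. Every value describes the pool, whose makeup by genotype and batch is not known, and a mix of cell types.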

Other observations

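Osmr and Lifr are neighbours on chromosome 15 and point away from each other, since Osmr is on the minus and Lifr on the plus strand. The 209.6 kb between their regions, each with 3 kb upstream, held 35 intervals (0.167 per kb), near the median of 0.186 per kb over coding gene regions. The strongest were 19.8 at 12.2 kb and 16.6 at 20.7 kb before the Lifr region, both over the noncoding gene Gm30971, and 19.1 at 31.9 kb upstream of the Osmr region, over no annotated gene. These 3 levels were close to the 20.7 at the Osmr start and above every other interval of Osmr.

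The Il11ra1 paralogs Il11ra2 and Il11ra3 had 0 intervals in their regions. Of the 50-base words of both regions, 100% occur again in the genome, with a median of 3 copies, and the authors removed reads that did not map uniquely. Whether these genes are closed or could not be read was not tested.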
